A study of Homo sapiens with 12 samples.

Results

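Antisense transcripts are RNAs read from the strand opposite to another gene, and GENCODE marks them with a biotype of their own. The series profiles RNA in KYSE180 and KYSE150, 2 established human cell lines of squamous carcinoma of the oesophagus. This account follows 408 genes with the antisense biotype, out of 5583 genes with that biotype and 58735 genes in all. They were selected on their mean level over the 12 libraries, at least 1 FPKM (fragments per kilobase of gene length, scaled between libraries). The rule leaves out GAS5, ZFAS1, DANCR, EPB41L4A-AS1 and names that start with SNHG, which removed 5 of 413 genes. Of the other antisense genes, 1801 had no read in any library. The mean level that chose the 408 transcripts is therefore a description and no finding, and it was high enough for some of them through 1 line or group alone. AC006252.1, at a mean of 1.002 FPKM, stood just inside the limit, and AL359915.2, at 0.998 FPKM, just outside it.

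There were 4 groups with 3 libraries each. KYSE180 cells with CDCA7 overexpression (CDCA7EXP) were set against native KYSE180 controls, and KYSE150 cells in which a hairpin RNA lowers CDCA7 (shCDCA7) against native KYSE150 controls. CDCA7 is a nuclear zinc finger protein, and HELLS, a remodeller of chromatin, is its known partner. The controls are labelled native and wild type. No empty vector or scrambled hairpin is named in the labels, and they give no hairpin sequence, expression construct or number of clones. The series is concerned with epithelial-mesenchymal transition under TGF-β, though no TGF-β treatment is labelled for these libraries. CDCA7 itself measured 44.6, 59.1 and 57.9 FPKM in CDCA7EXP against 24.0, 18.2 and 17.4 FPKM in KYSE180 controls, and 9.24, 10.1 and 8.83 FPKM in shCDCA7 against 27.4, 25.6 and 25.6 FPKM in KYSE150 controls, so the libraries follow their labels.

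Many protein-coding promoters fire in both directions, and the upstream product is a divergent antisense RNA that is usually short-lived, because the nuclear exosome and early termination remove it. Other antisense RNAs start inside or beyond a gene and run across its body, where some are known to recruit chromatin factors, to pair with the sense RNA or to interfere with its transcription. Many have no described function. For each transcript a sense partner was set by position alone on GENCODE 29 (GRCh38). A transcript is called divergent where a protein-coding gene of the other strand starts within 1000 bases of its own start, and otherwise overlapping where it overlaps such a gene.

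By that definition 167 transcripts were divergent, 205 were overlapping and 36 had no protein-coding partner. Among the divergent pairs the transcripts of 74 lay apart and those of 93 overlapped at their 5′ ends, with a median distance of 297 bases between the starts. Of the 408 transcripts, 155 had all their exon bases within genes of the other strand, 189 some and 64 none. Most carry clone names (260 of 408) and 68 have a single exon. They are spread over 23 chromosomes, with 37 on chromosome 1 and 33 on chromosome 17.

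The libraries held 16.3 M to 19.6 M reads, and the transcripts took 0.169 ± 0.00594% of them in CDCA7EXP, 0.193 ± 0.0223% in KYSE180 controls, 0.140 ± 0.0280% in shCDCA7 and 0.187 ± 0.00444% in KYSE150 controls (SD, n = 3). shCDCA7 replicate 2 stands apart. Mitochondrial genes took 11.2% of its reads, against 5.20% and 5.73% in the other 2 shCDCA7 libraries, the transcripts took 0.108%, and 50 of the 408 had no read in it, against 19 to 26 in the other KYSE150 libraries. The 6 squamous markers used for the check (KRT5, KRT14, KRT6A, TP63, DSG3 and CDH1) were all present, with summed levels of 3419 to 3910 FPKM in CDCA7EXP, 1477 to 3154 in KYSE180 controls, 503 to 586 in shCDCA7 and 343 to 355 in KYSE150 controls. Their sum is higher in the manipulated cells of both lines, though 0 of the 6 markers passed the test in KYSE180 and 3 did in KYSE150. The part of this sum in the results was not tested. In bulk RNA, fewer cells of a kind and less RNA per cell cannot be told apart. Fibroblast markers summed to at most 5.50 FPKM, leukocyte markers to at most 0.7496 and endothelial markers to at most 1.31 in any library.

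The values carry a limit that matters for RNAs of this kind. Of 324 antisense genes that lie wholly within exons of the other strand, 0 had a read, whereas 1596 of 2451 without any such overlap had one. Reads in exons shared by both strands are thus not counted for the antisense gene. The labels do not state a stranded library or strand-aware counting. Counting by strand would credit the antisense gene with its own reads in such exons, so the counts took no account of strand. Reads from an antisense exon and from an intron of its sense partner therefore cannot be told apart. A change given for a transcript inside its partner's gene may be one of sense RNA. Among the 408 transcripts, 241 share some exon sequence with the other strand, with a median of 16.5% of their exon bases.

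Levels were low for most of the 408 transcripts. The median of their mean levels was 1.72 FPKM, which corresponds to a median of 30 reads per library, and 243 stood at 2 FPKM or less. Only 14 reached 10 FPKM, and the 10 highest held 16.7% of the summed level. Group means of at least 1 FPKM were seen in all 4 groups for 159 transcripts, in the KYSE180 groups alone for 76 and in the KYSE150 groups alone for 32. Partners were usually higher than their antisense RNA: the median mean level was 1.87 FPKM for divergent transcripts and 9.49 FPKM for their partners, and 1.54 and 5.66 FPKM in overlapping pairs. Of 167 divergent transcripts 24 were above their partner, and of 205 overlapping transcripts 65 were.

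AC099850.3, inside the proliferation-linked gene PRR11, was the highest, with 28.5, 31.6 and 28.1 FPKM in CDCA7EXP, 15.6, 24.3 and 9.64 in KYSE180 controls, 63.8, 103 and 65.7 in shCDCA7 and 40.8, 42.5 and 42.5 in KYSE150 controls. FGD5-AS1, which starts beside the nuclear receptor gene NR2C2, followed at 17.8, 22.9 and 21.1 FPKM in CDCA7EXP, 20.7, 22.2 and 20.5 in KYSE180 controls, 27.1, 33.1 and 26.0 in shCDCA7 and 32.3, 31.4 and 32.1 in KYSE150 controls. FGD5-AS1 differed from its controls by -0.04 (SE 0.12, adjusted p = 0.855) in KYSE180 and -0.15 (SE 0.11, adjusted p = 0.357) in KYSE150 on the scale of log2(FPKM + 1), so neither manipulation moved it past the test. AC005288.1 and ARRDC1-AS1, which start beside the ubiquitin ligase gene FBXL20 and the histone methyltransferase gene EHMT1, were also without a call in either line.

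**Figure D1:**
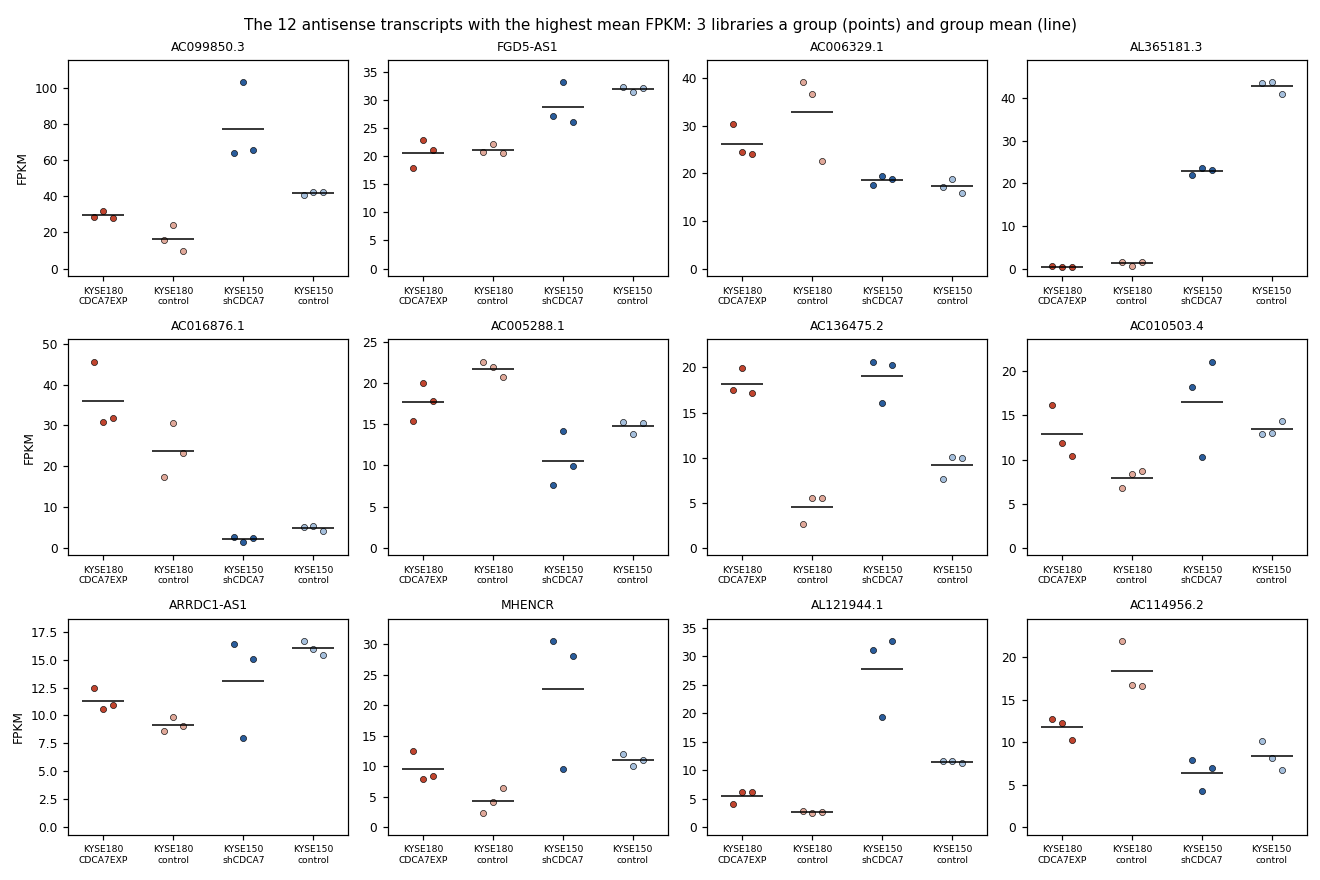
FPKM (y axis) of the 12 antisense transcripts with the highest mean level, in the 3 libraries (points) and as the mean (line) of each of the 4 groups. AL365181.3 stands at 21.9 to 43.8 FPKM in the KYSE150 groups and at 0.253 to 1.59 FPKM in the KYSE180 groups, while FGD5-AS1 is at 17.8 to 33.1 FPKM throughout.

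Changes are given as tested differences in log2(FPKM + 1), manipulated minus control, from limma-trend fits of all genes with enough reads, and a transcript is called at an adjusted p under 0.05, two-sided. The added 1 shrinks the change of low transcripts. In KYSE180 360 of the 408 transcripts could be tested, and 18 were called higher and 25 lower in CDCA7EXP. Across all genes 4.65% were called higher and 4.43% lower, and of the transcripts 5.00% and 6.94%. Without KYSE180 control replicate 3, in which the transcripts took 0.218% of reads against 0.181% and 0.179% in the other controls, the split turned to 39 higher and 26 lower of 343, with a median of 0.07. In KYSE150 334 could be tested, and 20 were called higher and 58 lower in shCDCA7, which is 5.99% and 17.4%, against 10.0% of all genes higher and 9.86% lower. The median change of the tested transcripts was -0.03 in KYSE180, where that of all genes was -0.00, and -0.17 in KYSE150, where that of all genes was 0.00. The filter on reads left out 48 transcripts in KYSE180 and 74 in KYSE150, and a transcript that passed through 1 group alone had to differ, so these shares are descriptions. Nothing in the labels says that replicates came from separate cultures, and a p-value then measures only the spread between these libraries.

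The tilt towards lower values in shCDCA7 moves with the library that stands apart. Without shCDCA7 replicate 2, 84 of 329 tested transcripts were called higher and 103 lower, 25.5% and 31.3%, where 29.5% of all genes were called higher and 26.4% lower, and the median change was -0.08. Of the 78 calls made with it, 75 were also made without it, all in the same direction. By position, the divergent transcripts had 8 higher and 35 lower of 155 tested in shCDCA7, with a median of -0.24, and the overlapping ones 12 higher and 20 lower of 158, with a median of -0.05. Without replicate 2 the divergent ones had 35 higher and 57 lower of 154 (median -0.13), and the overlapping ones 47 higher and 39 lower of 154 (median -0.02). In KYSE180 the divergent transcripts had 5 higher and 11 lower of 147, and the overlapping ones 11 higher and 14 lower of 179. A difference between the position classes was not tested. Scaling to library totals shifts the median of all genes by -0.16 in KYSE150, and the transcripts' calls then split into 14 higher and 84 lower. Over all genes the change correlated with GC content at r = -0.37 in KYSE150 and -0.01 in KYSE180. Across the transcripts r was -0.24 in KYSE150, -0.08 in KYSE150 without shCDCA7 replicate 2, and -0.13 in KYSE180. Median GC content was 51.4% in the transcripts, 52.7% in the divergent ones and 48.3% in genes tested in KYSE150. With a GC trend removed from each library, 24 transcripts were called higher and 62 lower in KYSE150. The part of GC content in the tilt was not tested.

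**Figure D2:**
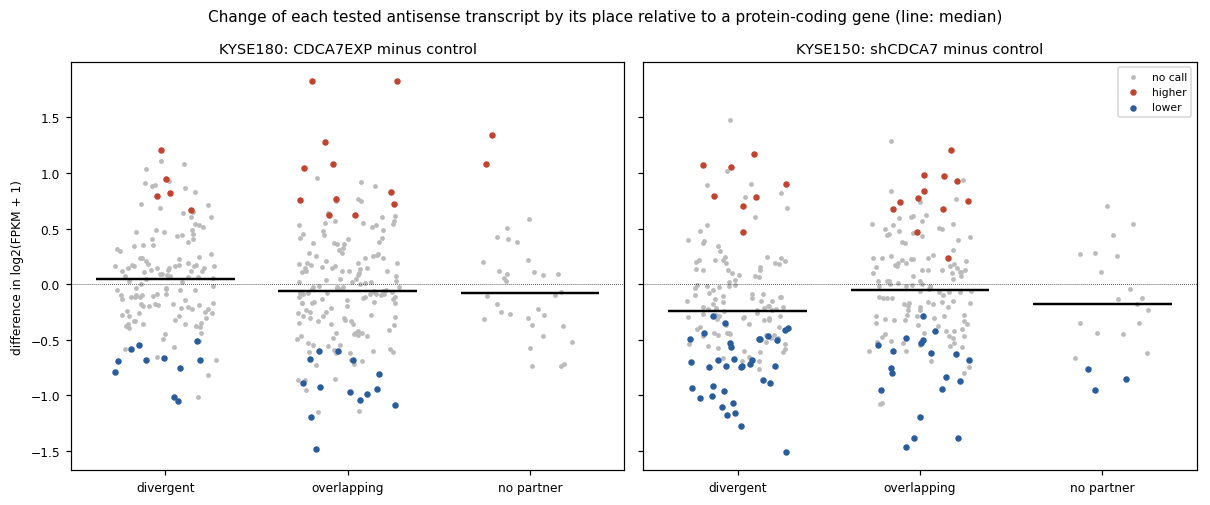
Difference in log2(FPKM + 1) (y axis) of every tested antisense transcript in KYSE180 (CDCA7EXP minus control, left) and KYSE150 (shCDCA7 minus control, right), by position relative to a protein-coding gene. Coloured points passed the test, grey points did not, and black lines are medians. The 35 lower calls among divergent transcripts in KYSE150 outnumber the 8 higher ones.

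CDCA7 was raised in 1 line and lowered in the other, and every transcript called in both moved the same way. The same was true of most genes. There were 13 of these, 5 higher and 8 lower in the manipulated cells, which is 30.2% of the 43 calls in KYSE180 and 16.7% of the 78 in KYSE150. Over all genes 433 were called in both lines, 29.9% of the KYSE180 calls and 15.2% of the KYSE150 calls, and 410 of them (94.7%) moved the same way, so the overlap is near that of all genes. These 13 were singled out after their values were seen. Among the 296 transcripts tested in both lines 197 had the same sign (66.6%, against 65.4% of all genes), and the changes correlated at r = 0.50, as a description across transcripts that share their libraries, where all 13377 genes tested in both gave r = 0.39. The 2 comparisons share no library.

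AC136475.2 and CD44-AS1 had the largest rises in KYSE180, both at 1.83. AC136475.2 (ENSG00000254910, chromosome 11, 310139 to 311141, minus strand) lies within the IFITM2 gene, which encodes an interferon-induced membrane protein. It had 17.5, 19.9 and 17.2 FPKM in CDCA7EXP against 2.67, 5.49 and 5.56 in KYSE180 controls, and 20.6, 16.0 and 20.3 FPKM in shCDCA7 against 7.63, 10.1 and 9.95 in KYSE150 controls. Neither pair of groups overlapped, and the differences were 1.83 (SE 0.23, adjusted p = 0.0104) and 0.97 (SE 0.15, adjusted p = 0.00934). IFITM2 itself passed the test in neither line, at -0.32 in KYSE180 and 0.78 in KYSE150. CD44-AS1 (ENSG00000255443, chromosome 11, 35210343 to 35214985, minus strand) lies inside CD44, the gene of the hyaluronan receptor. It measured 5.58, 8.55 and 9.99 FPKM in CDCA7EXP and 1.19, 1.28 and 2.07 in KYSE180 controls, which is 1.83 (SE 0.22, adjusted p = 0.0101). The KYSE150 values were 3.66, 3.86 and 4.46 FPKM in shCDCA7 and 1.91, 1.58 and 2.47 in controls, or 0.75 (SE 0.14, adjusted p = 0.0171). All manipulated libraries were above all controls of their line. CD44 rose in KYSE180, with 79.5, 87.7 and 88.2 FPKM in CDCA7EXP against 39.5, 54.4 and 54.4 in controls (log2 difference 0.79, SE 0.15, adjusted p = 0.0293), but gave -0.09 (SE 0.08, adjusted p = 0.419) in KYSE150.

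THAP9-AS1 (ENSG00000251022, chromosome 4, 82893009 to 82900960, minus strand) leaves the promoter region of THAP9, a gene derived from a DNA transposase. Its levels were 10.5, 10.8 and 10.99 FPKM in CDCA7EXP and 4.69, 5.72 and 6.75 in KYSE180 controls, and 9.64, 8.09 and 13.5 in shCDCA7 and 4.69, 3.94 and 4.58 in KYSE150 controls, again without overlap. It rose by 0.82 in KYSE180 (adjusted p = 0.0228) and by 1.05 in KYSE150 (adjusted p = 0.0134), while THAP9, at 0.766 to 1.52 FPKM in all libraries, gave 0.06 and 0.11 with no call. AL121944.1 and its partner both rose. This divergent transcript of the zinc finger gene ZNF165 had 4.15, 6.18 and 6.17 FPKM in CDCA7EXP against 2.88, 2.51 and 2.74 in KYSE180 controls and 31.2, 19.4 and 32.7 in shCDCA7 against 11.6, 11.7 and 11.2 in KYSE150 controls, and ZNF165 rose by 0.71 and 1.35 (adjusted p = 0.0333 and adjusted p = 0.00546). AC000123.1, across the zinc finger gene ZNF800, rose by 0.75 and 0.77.

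Of the 8 that fell in both lines, TMEM147-AS1 (ENSG00000236144, chromosome 19, 35540738 to 35546029, minus strand) fell most in KYSE180. It stood at 2.65, 2.56 and 2.29 FPKM in CDCA7EXP against 7.01, 5.48 and 6.33 in KYSE180 controls (log2 difference -1.05, SE 0.13, adjusted p = 0.0114), and at 1.89, 1.25 and 1.95 FPKM in shCDCA7 against 3.69, 3.69 and 2.99 in KYSE150 controls (log2 difference -0.73, SE 0.15, adjusted p = 0.0192). Its divergent partner TMEM147, which encodes a membrane protein of the endoplasmic reticulum, was at 32.5 to 51.2 FPKM in all 12 libraries and had no call. HCG18, divergent from the ubiquitin ligase gene TRIM39, measured 0.702, 1.118 and 0.909 FPKM in CDCA7EXP against 2.30, 2.14 and 2.21 in KYSE180 controls and 1.499, 2.69 and 1.79 FPKM in shCDCA7 against 3.87, 3.88 and 3.47 in KYSE150 controls. HCG18 fell by 0.76 in KYSE180 and by 0.68 in KYSE150 on the log2 scale, and TRIM39 also fell in KYSE150 (log2 difference -0.44, SE 0.10, adjusted p = 0.0303) but had no call in KYSE180 (-0.13). TMEM44-AS1 fell by 0.97 and 0.62, and TMEM44 fell with it in KYSE150 alone (log2 difference -0.56, SE 0.12, adjusted p = 0.0241). MAFG-DT, divergent from the small MAF transcription factor gene MAFG, went lower in both despite very different levels, with 4.31, 3.44 and 3.21 FPKM in CDCA7EXP against 6.73, 7.67 and 5.11 in KYSE180 controls, and 0.0334, 0.116 and 0.3002 in shCDCA7 against 0.617, 0.624 and 0.581 in KYSE150 controls. The other 4 were AC010168.1, AC018647.2, AC022211.2 and AC008966.1, opposite GUCY2C, HERPUD2, MIF4GD and MOCS2, with falls of between 0.54 and 0.95 in either line. Leaving out 1 library took the KYSE180 call from each of the 13, among them without CDCA7EXP replicate 1 for all but AC000123.1, which could not be tested then. In KYSE150 all of them but AC010168.1 lost the call in at least 1 such fit. AC010168.1 could be tested in only 3 of 6, since it passed the filter on reads through its control libraries alone. No fit without a control tested it, so its call was not put to the same check. In KYSE180 AC010168.1 also passed through its controls alone, and AC000123.1 passed through CDCA7EXP alone. Each could be tested there in only 3 of 6 such fits, and each had to differ to pass.

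**Figure D3:**
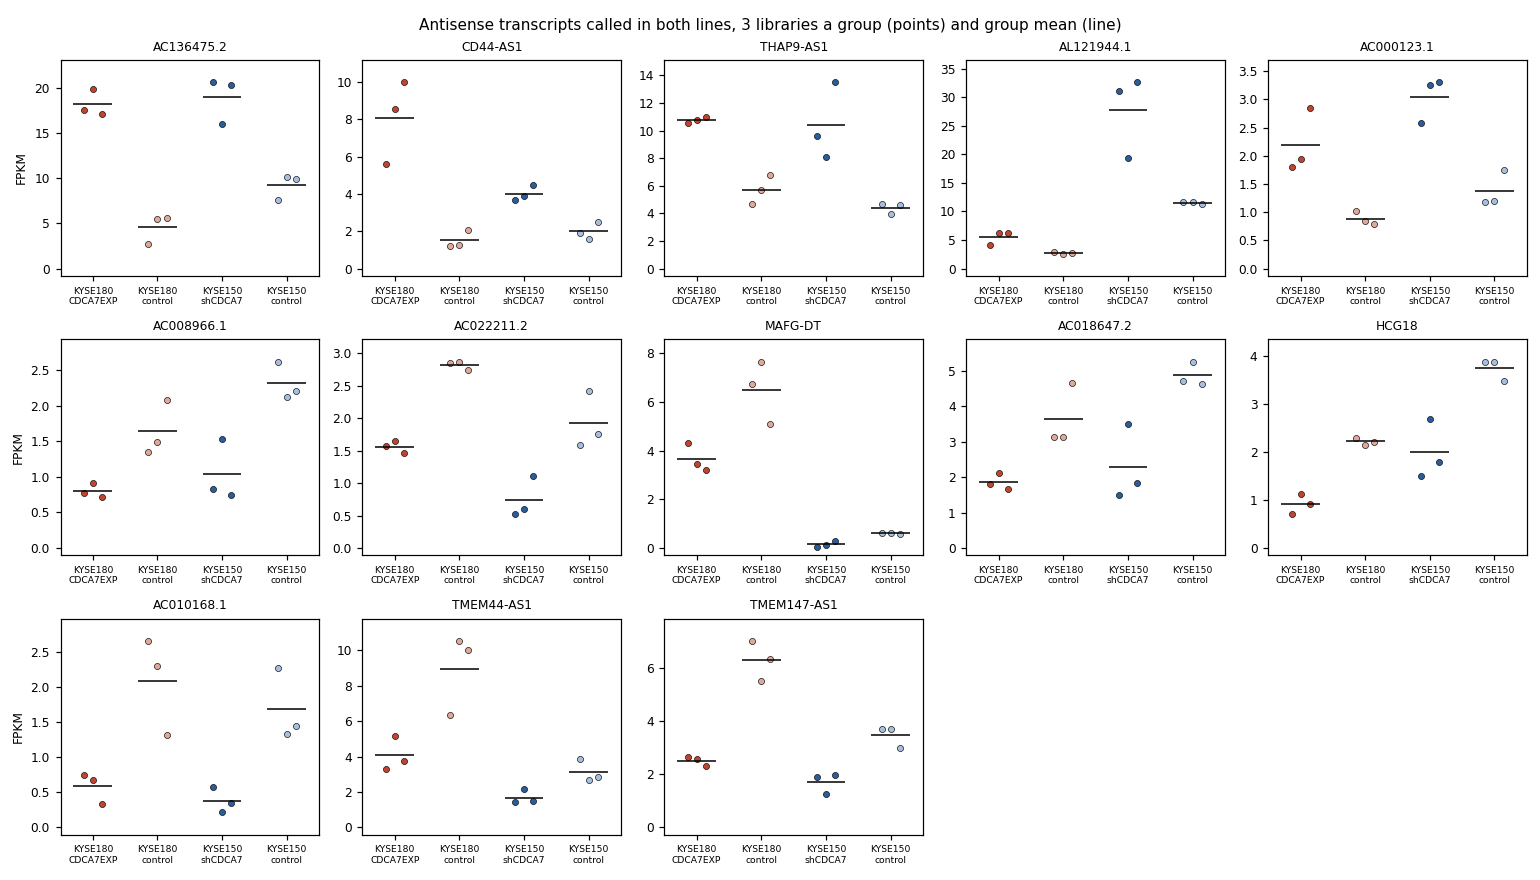
FPKM (y axis) of the 13 antisense transcripts called in both lines, in the 3 libraries (points) and as the mean (line) of each group, ordered from the largest rise to the largest fall in KYSE180. In both lines the manipulated cells are on the same side of their controls, for example THAP9-AS1 at 10.5 to 10.99 FPKM in CDCA7EXP against 4.69 to 6.75 in KYSE180 controls.

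Promoter windows are shown for 3 divergent transcripts called in both lines. CTBP1-DT, described next, is added as a divergent RNA that fell in KYSE150. Each window runs from 250 bases before to 50 bases after the RefSeq start (RefSeq, GRCh38.p14), in the direction of the antisense RNA. That start lies 0 bases from the GENCODE start for TMEM147-AS1, 6 for HCG18, 44 for THAP9-AS1 and 140 for CTBP1-DT. Capitals mark every match on either strand to the TATA box TATAAA, the CCAAT box, the GC box core GGGCGG, the ETS core CCGGAA, the E-box CACGTG or the AP-1 motif TGANTCA, and matches may overlap.
THAP9-AS1 (chr4:82900867-82901166, minus strand): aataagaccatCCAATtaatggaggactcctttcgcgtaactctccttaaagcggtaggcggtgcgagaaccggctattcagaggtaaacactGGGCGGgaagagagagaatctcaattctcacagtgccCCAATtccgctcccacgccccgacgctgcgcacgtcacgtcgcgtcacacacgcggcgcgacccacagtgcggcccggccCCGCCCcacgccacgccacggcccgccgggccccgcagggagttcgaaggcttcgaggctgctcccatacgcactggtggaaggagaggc
TMEM147-AS1 (chr19:35545980-35546279, minus strand): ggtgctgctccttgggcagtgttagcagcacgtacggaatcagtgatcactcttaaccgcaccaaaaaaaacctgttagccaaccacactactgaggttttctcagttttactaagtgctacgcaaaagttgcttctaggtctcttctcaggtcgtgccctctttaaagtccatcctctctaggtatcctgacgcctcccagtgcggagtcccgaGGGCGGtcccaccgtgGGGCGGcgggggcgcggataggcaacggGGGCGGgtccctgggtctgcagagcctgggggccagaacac
HCG18 (chr6:30327107-30327406, minus strand): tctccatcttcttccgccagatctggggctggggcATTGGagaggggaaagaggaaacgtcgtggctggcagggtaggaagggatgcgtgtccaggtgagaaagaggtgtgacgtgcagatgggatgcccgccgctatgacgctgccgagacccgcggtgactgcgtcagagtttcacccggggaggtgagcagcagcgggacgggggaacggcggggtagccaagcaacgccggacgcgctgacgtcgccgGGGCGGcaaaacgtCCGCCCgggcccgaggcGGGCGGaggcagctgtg
CTBP1-DT (chr4:1249190-1249489, plus strand): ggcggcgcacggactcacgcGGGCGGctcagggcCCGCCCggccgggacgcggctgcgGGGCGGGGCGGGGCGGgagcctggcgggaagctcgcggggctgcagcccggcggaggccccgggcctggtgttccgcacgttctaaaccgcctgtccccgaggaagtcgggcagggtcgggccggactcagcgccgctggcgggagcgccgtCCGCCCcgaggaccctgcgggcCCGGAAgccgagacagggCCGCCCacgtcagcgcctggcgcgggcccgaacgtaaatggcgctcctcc
THAP9-AS1 held 2 matches to CCAAT and 2 to GGGCGG, TMEM147-AS1 3 to GGGCGG, HCG18 1 to CCAAT and 3 to GGGCGG, and CTBP1-DT 7 to GGGCGG and 1 to CCGGAA. The windows of TMPO-AS1, which also fell in KYSE150, and of TMEM44-AS1, called in both lines, are not shown and held 0 matches. Their RefSeq starts lie 196 and 257 bases from the GENCODE starts. Of the 408 transcripts 99 had a RefSeq promoter under the same name. GGGCGG was in 59.6% of those 99 and in 44.6% of all 27305 promoters of that length, CCAAT in 36.4% and 35.7%, and TATAAA in 3.03% and 11.95%. CCGGAA was in 16.2% and 17.6%, CACGTG in 9.09% and 7.43%, and TGANTCA in 7.07% and 7.76%. The median number of CG dinucleotides was 24 in the 99 and 14 in all promoters. A match is a run of letters and no binding site.

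Several of the largest falls in shCDCA7 were those of divergent transcripts. AC093673.1 (ENSG00000232533, chromosome 7, 143379692 to 143380495, minus strand), divergent from the focal adhesion gene ZYX, had 3.32, 2.03 and 4.56 FPKM in shCDCA7 and 10.7, 10.5 and 11.3 in controls, a difference of -1.50 (SE 0.22, adjusted p = 0.00818). ZYX measured 44.0, 26.7 and 45.7 FPKM in shCDCA7 and 33.2, 34.9 and 32.5 in controls (log2 difference 0.17, SE 0.21, adjusted p = 0.597). AC009779.2 (ENSG00000258056, chromosome 12, 55729104 to 55730852, plus strand) starts beside CD63, which encodes a tetraspanin of endosomes and exosomes. It stood at 1.01, 0.658 and 0.946 FPKM in shCDCA7 against 3.47, 3.60 and 3.47 in controls (log2 difference -1.27, SE 0.11, adjusted p = 0.00244), and CD63 at 82.2, 67.1 and 80.9 FPKM in shCDCA7 against 63.9, 67.2 and 65.0 in controls (log2 difference 0.22, SE 0.10, adjusted p = 0.176). AL118506.1, divergent from TPD52L2, measured 1.85, 1.94 and 2.12 FPKM in shCDCA7 and 6.02, 6.33 and 4.87 in controls (log2 difference -1.18, SE 0.12, adjusted p = 0.0039), and TPD52L2 gave 0.07 (SE 0.09, adjusted p = 0.617). In each of these 3 the groups of the antisense RNA stood apart.

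CTBP1-DT (ENSG00000196810, chromosome 4, 1249300 to 1288291, plus strand) starts inside CTBP1, the gene of a transcriptional corepressor, near its 5′ end, and runs out past its start on the other strand. It had 0.639, 0.523 and 0.575 FPKM in shCDCA7 against 2.37, 2.95 and 2.27 in KYSE150 controls, a difference of -1.16 (SE 0.10, adjusted p = 0.0026). CTBP1 measured 8.02, 6.41 and 7.55 FPKM in shCDCA7 and 8.65, 8.995 and 8.35 in controls, with no call (log2 difference -0.22, SE 0.11, adjusted p = 0.205). TMPO-AS1 (ENSG00000257167, chromosome 12, 98512973 to 98516422, minus strand), studied as a growth-linked RNA in several cancers, is divergent from TMPO, which encodes proteins of the nuclear lamina. It stood at 0.640, 0.675 and 0.441 FPKM in shCDCA7 against 2.35, 2.15 and 2.14 in controls (log2 difference -1.02, SE 0.09, adjusted p = 0.00266), while TMPO was at 24.9, 33.4 and 25.7 FPKM in shCDCA7 against 22.6, 23.3 and 26.0 in controls (log2 difference 0.20, SE 0.13, adjusted p = 0.317). For both RNAs the highest shCDCA7 library was below the lowest control.

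Some overlapping transcripts fell together with their partner. AL121929.2, a single exon inside SH3PXD2A, the gene of a podosome scaffold, measured 0.972, 1.123 and 0.834 FPKM in shCDCA7 and 3.85, 4.45 and 4.16 in controls (log2 difference -1.38, SE 0.11, adjusted p = 0.002), and SH3PXD2A measured 5.57, 5.87 and 5.87 FPKM in shCDCA7 and 11.1, 10.5 and 9.93 in controls (log2 difference -0.77, SE 0.09, adjusted p = 0.00546). A pair of transcripts overlaps BCAN, the brevican gene. AL365181.3 had 21.9, 23.6 and 23.2 FPKM in shCDCA7 and 43.6, 43.8 and 40.9 in controls, a difference of -0.87. AL590666.2 had 12.3, 5.21 and 12.5 FPKM in shCDCA7 and 27.9, 27.0 and 23.4 in controls. BCAN had 1.74, 2.53 and 1.61 FPKM in shCDCA7 and 3.31, 3.92 and 3.54 in controls, with differences of -1.38 for AL590666.2 and -0.64 for BCAN, and all 3 genes were called. The 2 antisense RNAs share that partner and are not independent. AC018553.2, which has 5.26% of its exon bases within the homeobox gene IRX3, fell by 1.46 (adjusted p = 0.00362) and IRX3 gave -0.35 (SE 0.28, adjusted p = 0.416). AC083855.2, inside the histamine receptor gene HRH1, had 2.10, 1.39 and 2.11 FPKM in shCDCA7 against 4.74, 6.46 and 5.47 in controls (log2 difference -1.195, SE 0.16, adjusted p = 0.0066), with HRH1 at -0.52 (SE 0.17, adjusted p = 0.0802).

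The rises in shCDCA7 were fewer. AC025287.3, a single exon inside the autophagy gene GABARAPL2, measured 2.15, 3.36 and 2.38 FPKM in shCDCA7 and 0.560, 0.616 and 0.499 in controls (log2 difference 1.21, SE 0.14, adjusted p = 0.00449), and GABARAPL2 also rose (log2 difference 0.50, SE 0.11, adjusted p = 0.0273). AL033397.2, within GCLC, which encodes an enzyme of glutathione synthesis, had 1.62, 2.004 and 2.50 FPKM in shCDCA7 against 0.513, 0.846 and 0.274 in controls (log2 difference 0.98, SE 0.17, adjusted p = 0.0124), and GCLC rose by 0.66 (adjusted p = 0.0057). AC025287.3 and AL033397.2 passed the filter on reads through their shCDCA7 libraries alone, and so had to differ. They could be tested in only 3 of 6 fits without 1 library, and kept the call in 3 and 1 of these. ADNP-AS1, divergent from the chromatin gene ADNP, had 2.52, 3.78 and 3.01 FPKM in shCDCA7 against 1.16, 1.11 and 0.593 in controls (log2 difference 1.07, SE 0.17, adjusted p = 0.00995), where ADNP gave -0.49 (SE 0.25, adjusted p = 0.217). AP005899.1 in NDUFV2, AL162231.2 and AC099850.3 in PRR11 rose by 0.92, 0.90 and 0.84. PRR11 itself had 35.2, 64.3 and 35.0 FPKM in shCDCA7 against 23.4, 23.1 and 24.4 in controls, a difference as large but without a call (log2 difference 0.84, SE 0.24, adjusted p = 0.0518). In KYSE180 PRR11 was called higher in CDCA7EXP (log2 difference 0.87, adjusted p = 0.0432), a call kept in 1 of 6 fits without 1 library.

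Of the 78 calls in KYSE150, 11 held in each of the 6 fits that left out 1 library, and all 11 were falls. They include AC009779.2, AC018553.2, AC083855.2, AL118506.1, AL121929.2, AL365181.3, CTBP1-DT and TMPO-AS1. The number of called transcripts was 49, 187 and 48 without shCDCA7 replicates 1, 2 and 3, and 16, 14 and 20 without control replicates 1, 2 and 3. Over all genes these fits gave 1758, 7948 and 1530 calls and 536, 410 and 685 calls, against 2854 with all libraries.

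**Figure D4:**
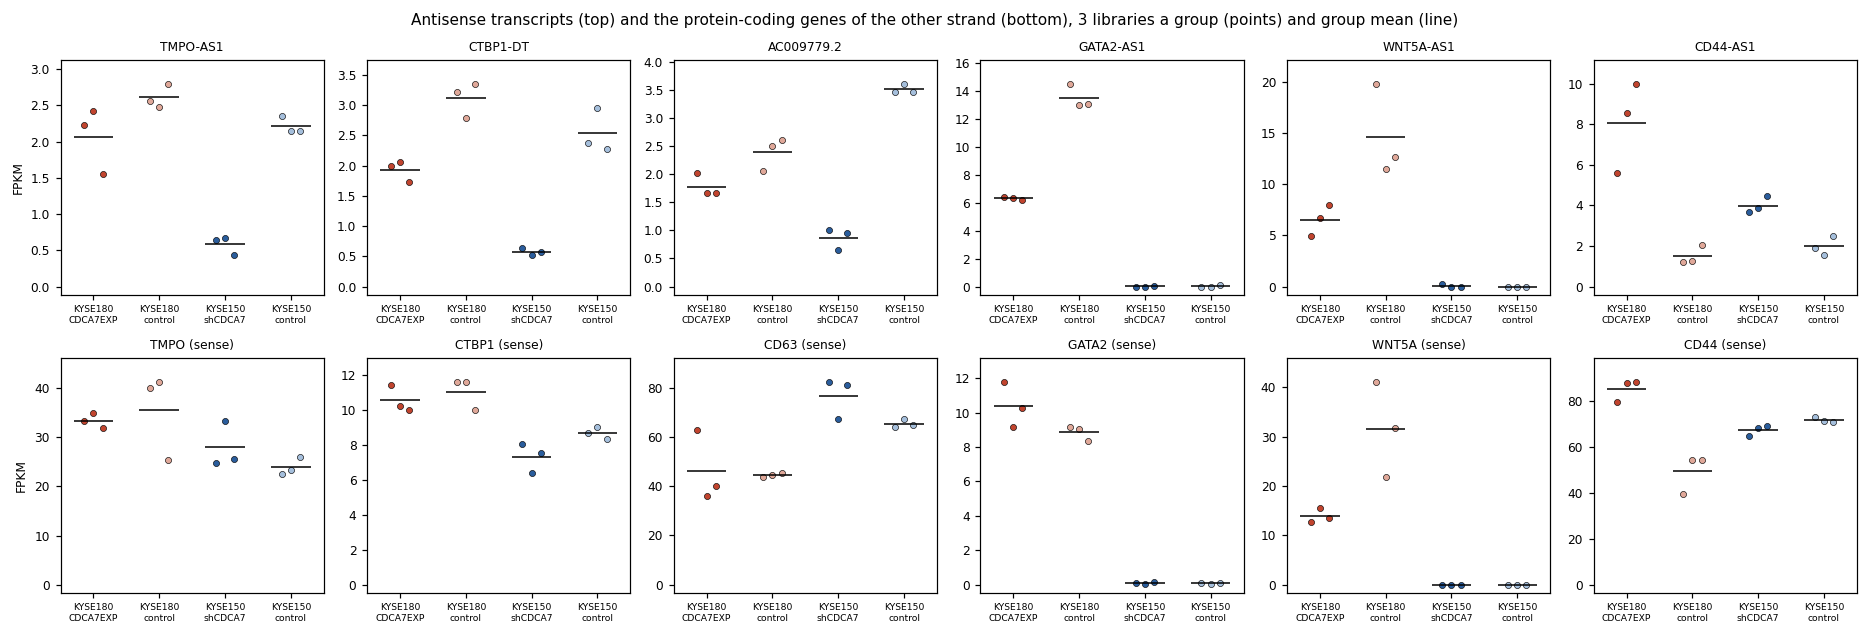
FPKM (y axis) of 6 antisense transcripts (top) and of the protein-coding gene on the other strand (bottom), in the 3 libraries (points) and as the mean (line) of each group. TMPO-AS1, CTBP1-DT and AC009779.2 are lower in shCDCA7 than in KYSE150 controls while TMPO, CTBP1 and CD63 have no call, and WNT5A-AS1 is lower in CDCA7EXP together with WNT5A.

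In KYSE180 the rises in CDCA7EXP beyond those shared with KYSE150 included PCAT6 (ENSG00000228288, chromosome 1, 202810954 to 202812156, plus strand), a transcript known from prostate cancer. It measured 13.0, 9.78 and 11.8 FPKM in CDCA7EXP against 2.29, 3.93 and 6.33 in controls (log2 difference 1.34, SE 0.27, adjusted p = 0.0308) and was at or below 0.169 FPKM in every KYSE150 library. UNC5B-AS1, within the netrin receptor gene UNC5B, had 4.11, 2.76 and 2.38 FPKM in CDCA7EXP against 0.741, 0.152 and 1.29 in controls (log2 difference 1.27, SE 0.26, adjusted p = 0.0316). TOLLIP-AS1, divergent from the innate signalling gene TOLLIP, had 6.12, 5.11 and 3.76 FPKM in CDCA7EXP against 0.806, 1.43 and 2.86 in controls (log2 difference 1.203, SE 0.28, adjusted p = 0.0412). KCNMB2-AS1, across a potassium channel subunit gene, had 9.29, 7.56 and 7.70 FPKM in CDCA7EXP against 2.34, 2.74 and 5.49 in controls (log2 difference 1.08, SE 0.25, adjusted p = 0.0387). In all 4 the groups did not overlap, which their choice as large called rises favours. UNC5B (-0.63), TOLLIP (-0.16) and KCNMB2 (-0.18) had no call. AC092611.2 and AL109615.3 rose by 1.08 and 1.05.

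Among the falls in CDCA7EXP, WNT5A-AS1 (ENSG00000244586, chromosome 3, 55487699 to 55488308, plus strand) lies within WNT5A, the gene of a noncanonical Wnt ligand. It stood at 4.95, 6.70 and 7.92 FPKM in CDCA7EXP against 19.8, 11.5 and 12.7 in controls (log2 difference -1.04, SE 0.23, adjusted p = 0.0351). WNT5A fell by nearly the same amount, with 12.7, 15.6 and 13.4 FPKM in CDCA7EXP and 41.1, 21.9 and 31.7 in controls (log2 difference -1.09, SE 0.22, adjusted p = 0.0296). GATA2-AS1 (ENSG00000244300, chromosome 3, 128489212 to 128502348, plus strand) overlaps GATA2, which encodes a zinc finger transcription factor. It had 6.42, 6.35 and 6.18 FPKM in CDCA7EXP against 14.5, 13.0 and 13.1 in controls (log2 difference -0.99, SE 0.11, adjusted p = 0.0086), while GATA2 had no call, with 11.8, 9.15 and 10.3 FPKM in CDCA7EXP against 9.18, 9.08 and 8.35 in controls (log2 difference 0.20, SE 0.13, adjusted p = 0.315). AC026740.1 and its partner moved in opposite directions. This single-exon transcript inside TPPP, a gene of a tubulin-binding protein, had 0.938, 0.423 and 0.412 FPKM in CDCA7EXP and 2.80, 2.25 and 2.76 in controls (log2 difference -1.19, SE 0.15, adjusted p = 0.0118), and TPPP had 1.78, 1.73 and 2.08 FPKM in CDCA7EXP and 0.735, 1.21 and 0.918 in controls (log2 difference 0.56, SE 0.13, adjusted p = 0.0389). AC122685.1, a transcript with no read in any KYSE150 library, had 1.54, 1.72 and 1.116 FPKM in CDCA7EXP and 7.69, 6.48 and 3.87 in controls (log2 difference -1.48, SE 0.23, adjusted p = 0.0176). LPP-AS2, AC145207.8 and AC114956.2 fell by 1.01, 1.08 and 0.60.

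The KYSE180 calls depended on which libraries entered the fit. The number of called transcripts was 0, 8 and 0 without CDCA7EXP replicates 1, 2 and 3, and 2, 64 and 65 without control replicates 1, 2 and 3, against 43 with all. Over all genes these fits gave 1, 175 and 8 calls and 75, 2097 and 2317 calls, against 1447 with all. The swing is therefore not particular to the antisense transcripts. None of the 43 held in every such fit, and 38 of them could be tested in all 6. GATA2-AS1 and AC136475.2 kept their calls in 4 of 6, with the highest adjusted p at 0.0682 and 0.0714, and differences between -1.01 and -0.94 for GATA2-AS1 and between 1.55 and 1.97 for AC136475.2.

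The effects of overexpression and hairpin were then compared directly, by subtracting the change in shCDCA7 from the change in CDCA7EXP, in a fit of all 12 libraries. Of 401 tested transcripts 18 were higher by that measure and 7 lower, against 2.87% and 2.7% of all genes. AC016876.1, divergent from MPDU1, a gene of protein glycosylation, was the highest of them in level. It had 45.7, 30.7 and 31.9 FPKM in CDCA7EXP against 17.4, 30.5 and 23.2 in KYSE180 controls (log2 difference 0.60, SE 0.23, adjusted p = 0.125), and 2.63, 1.45 and 2.31 FPKM in shCDCA7 against 5.17, 5.35 and 4.25 in KYSE150 controls (log2 difference -0.93, SE 0.18, adjusted p = 0.0163), and its effects differed by 1.53 (SE 0.31, adjusted p = 0.019). MPDU1 fell in shCDCA7 too (log2 difference -0.60, SE 0.12, adjusted p = 0.0171). AC093673.1 beside ZYX differed by 1.67 (SE 0.35, adjusted p = 0.0215), being 0.17 in KYSE180. AL033397.2 in GCLC differed the other way, by -1.53 (SE 0.36, adjusted p = 0.0335), with 1.13, 1.63 and 2.38 FPKM in CDCA7EXP against 3.62, 1.57 and 3.99 in KYSE180 controls. A difference for AC122685.1 (-1.48), AL121929.2 (1.45) and AC025287.3 (-1.36) held in each fit without 1 library that could test it (12, 12 and 11 fits). AC122685.1 has no read in KYSE150 and AL121929.2 at most 0.114 FPKM in KYSE180, so a change there could not be seen in 1 of the lines. For AC122685.1 the difference is thus its KYSE180 change alone. The 12-library fit also draws its spread from the KYSE150 libraries, where AC122685.1 is at 0. In the fit of KYSE180 alone the change of AC122685.1 kept its call in 3 of 6 (highest adjusted p = 0.0948). The count was 41 without KYSE180 control replicate 2 and 41 without shCDCA7 replicate 2. Over all genes these fits gave 1632 and 1542 calls, against 952 with all libraries. Each of the other 10 left-out libraries gave between 5 and 32 called transcripts.

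Between native KYSE180 and native KYSE150 cells, 113 of 401 tested transcripts were higher in KYSE180 and 84 lower, where 33.4% of all genes were higher and 24.6% lower. Since the rule takes the mean over both lines, this count is a description. MCF2L-AS1 had 17.6, 20.5 and 26.3 FPKM in native KYSE180 cells and no read in the KYSE150 libraries, and its partner MCF2L had 2.12, 1.44 and 2.59 FPKM in native KYSE180 against 0.0182, 0.0378 and 0.0216 in native KYSE150 cells. WNT5A-AS1 and GATA2-AS1 were likewise near 0 in KYSE150 together with WNT5A and GATA2. In the other direction TGFB2-AS1 (ENSG00000232480, chromosome 1, 218344196 to 218345678, minus strand), divergent from the TGF-β ligand gene TGFB2, had 0, 0 and 0.0911 FPKM in native KYSE180 cells against 12.7, 12.5 and 10.3 in native KYSE150 cells. TGFB2 showed the same split, at 0.0678, 0.0731 and 0.276 FPKM in native KYSE180 against 11.1, 10.7 and 10.3 in native KYSE150 cells. In shCDCA7 cells TGFB2 rose (19.1, 33.0 and 21.0 FPKM, log2 difference 1.08, SE 0.20, adjusted p = 0.0156), whereas TGFB2-AS1 was at 21.6, 5.90 and 21.4 FPKM (log2 difference 0.25, SE 0.46, adjusted p = 0.73), low in replicate 2 alone. Without that library, picked with the values in view, TGFB2-AS1 in KYSE150 gave 0.82 (adjusted p = 0.00027). That fit called 187 of 329 tested transcripts and 7948 genes in all, so a call in it is common. AC095055.1, inside SH3D19, was at 0.105, 0.0484 and 0.410 FPKM in native KYSE180 against 8.02, 8.74 and 9.66 in native KYSE150 cells, although SH3D19 had levels of 5.84, 8.42 and 7.80 FPKM in native KYSE180 and 8.67, 7.91 and 8.88 in native KYSE150 cells. AC011374.1 and AC008464.1 (3.30 and 3.29) were higher in native KYSE180 cells and AL357992.1 (-2.50) lower.

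Pairs of antisense RNA and partner were compared over all transcripts with both members tested, as counts with 95% Wilson intervals that treat pairs as independent, which they are not. In KYSE180 171 of 305 pairs had the same sign of change (56.1%, 50.5% to 61.5%), with r = 0.20 across pairs. In KYSE150 174 of 288 did (60.4%, 54.7% to 65.9%), with r = 0.24. There the overlapping pairs had 94 of 138 (68.1%, r = 0.46) and the divergent pairs 80 of 150 (53.3%, r = 0.10). Without shCDCA7 replicate 2 the shares were 59.4% of 133 overlapping and 55.0% of 149 divergent pairs. Pairs with no exon overlap between strands gave 54.2% of 96 in KYSE150. Since intronic sense reads may count towards an overlapping antisense RNA, agreement of that class cannot be told apart from shared reads. Between the native lines 238 of 349 pairs had the same sign (68.2%, r = 0.58).

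Called antisense RNAs often had a partner without a call, as did most genes. In KYSE150 that held for 50 of 70 called transcripts with a tested partner (71.4%), where 80.1% of all genes and 82.0% of all tested partners had no call, and of the other 20 pairs 18 moved together and 2 apart. In KYSE180 it held for 35 of 39 (89.7%), where 90.9% of all genes and 92.3% of all tested partners had no call, and of the other 4 pairs 3 moved together and 1 apart, the last being AC026740.1 and TPPP. A partner without a call is not shown to be unchanged.

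**Figure D5:**
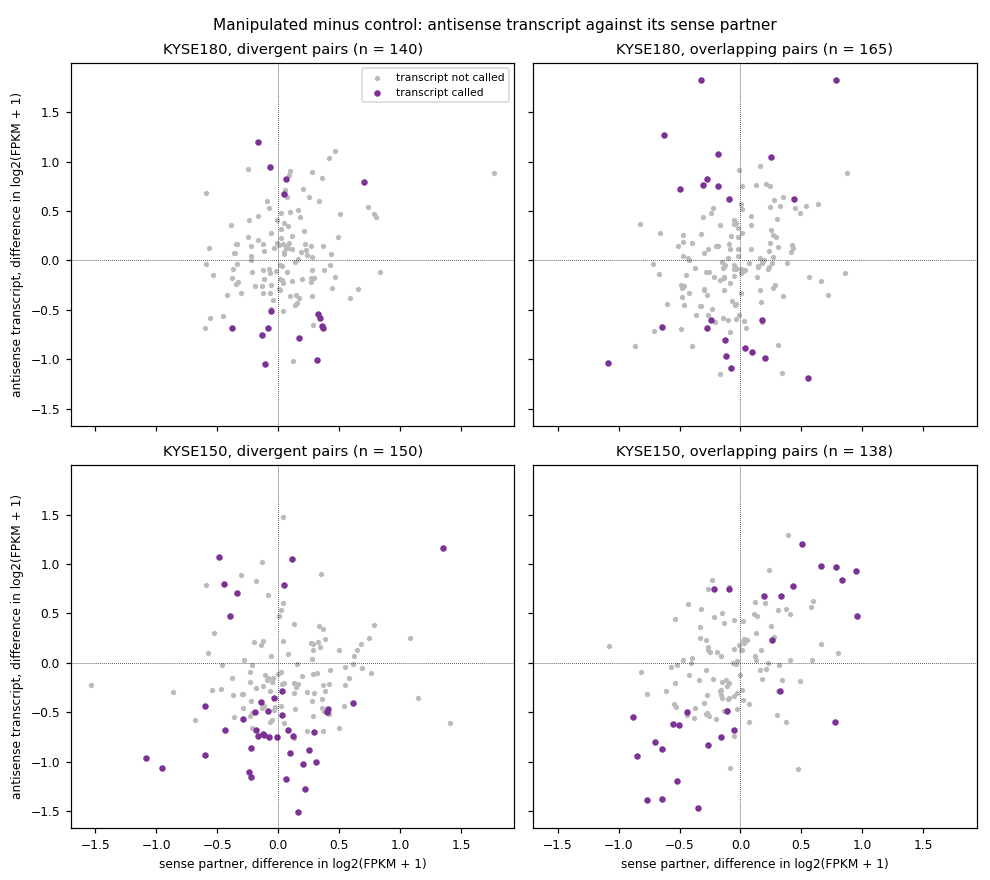
Difference in log2(FPKM + 1), manipulated minus control, of each antisense transcript (y axis) against its sense partner (x axis), for KYSE180 (top) and KYSE150 (bottom) and for divergent (left) and overlapping (right) pairs. Purple transcripts passed the test. The overlapping pairs in KYSE150 lean along the diagonal (r = 0.46), the divergent pairs do not (r = 0.10).

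Antisense RNAs with a described role in cancer or development were taken from a list of 43, of which 12 are among the 408. In shCDCA7 11 of the 12 could be tested. Of all tested transcripts among the 408, 17.4% fell there and 5.99% rose, and of all genes 9.86% fell and 10.0% rose. Of the 11, 5 fell and 0 rose. Beside TMPO-AS1 these were VPS9D1-AS1 with 4.26, 4.002 and 3.99 FPKM in shCDCA7 against 5.33, 7.07 and 6.30 in KYSE150 controls (log2 difference -0.50, SE 0.12, adjusted p = 0.0345), and NKILA, known as a brake on NF-κB, with 0.803, 1.18 and 0.766 FPKM in shCDCA7 against 2.63, 2.02 and 1.597 in controls (log2 difference -0.68, SE 0.15, adjusted p = 0.0274). NNT-AS1 (-0.29) and SBF2-AS1 (-0.29) fell by less. Of these, only TMPO-AS1 kept its call without each library in turn. The 12 in CDCA7EXP gave 2 falls and no rise. Of all tested transcripts 6.94% fell there and 5.00% rose, and of all genes 4.43% fell and 4.65% rose. AFAP1-AS1, linked to invasion in oesophageal and other tumours, had 1.67, 2.15 and 2.02 FPKM in CDCA7EXP against 4.02, 3.56 and 2.90 in KYSE180 controls (log2 difference -0.60, SE 0.15, adjusted p = 0.0438), and FOXN3-AS1 had 1.03, 1.04 and 0.655 FPKM in CDCA7EXP against 2.65, 2.10 and 2.83 in controls (log2 difference -0.89, SE 0.14, adjusted p = 0.0189). ZEB1-AS1, opposite the gene of the mesenchymal repressor ZEB1, passed no test. It had 1.52, 1.24 and 1.19 FPKM in CDCA7EXP against 0.486, 0.759 and 0.993 in KYSE180 controls (log2 difference 0.41, SE 0.13, adjusted p = 0.0839) and 1.77, 1.96 and 2.32 in shCDCA7 against 2.12, 1.73 and 1.37 in KYSE150 controls (log2 difference 0.14, SE 0.14, adjusted p = 0.489), with ZEB1 itself at or below 0.103 FPKM in every library. HOTAIRM1, LOXL1-AS1, DDX11-AS1 and FGD5-AS1 had no call in either line. The HOXA transcript HOTAIRM1 was at 16.0, 6.89 and 18.9 FPKM in shCDCA7 against 6.56, 6.46 and 6.32 in KYSE150 controls (log2 difference 0.90, SE 0.33, adjusted p = 0.106). Without shCDCA7 replicate 2, HOTAIRM1 in KYSE150 gave 1.30 (adjusted p = 3.3e-05). The library to leave out was picked here with the values in view. That fit called 187 of 329 tested transcripts and 7948 genes in all, so a call in it is common. Over the whole list, 1 gene rose and 3 fell of 27 tested in KYSE180, and 1 rose and 9 fell of 26 tested in KYSE150, with median changes of -0.10 in KYSE180 and -0.13 in KYSE150. MIR210HG, a hypoxia-linked RNA on the list though not among the 408, fell in both lines, with -0.68 and -0.68.

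Genes whose products terminate and degrade antisense RNAs were examined as a list of 50. In KYSE180 1 rose and 3 fell (median -0.12), where 4.65% of all genes rose and 4.43% fell. In KYSE150 5 rose and 9 fell (median -0.10), where 10.0% of all genes rose and 9.86% fell. Apart from the 9 falls in KYSE150, these counts are near the shares over all genes. ZC3H4, PPP1R10 and SRRT fell in both. ZC3H4, a factor that ends noncoding transcription early, had 2.50, 2.69 and 2.32 FPKM in CDCA7EXP against 12.8, 11.002 and 11.1 in KYSE180 controls (log2 difference -1.85, SE 0.12, adjusted p = 0.00206) and 1.40, 1.44 and 1.66 in shCDCA7 against 5.13, 6.51 and 5.72 in KYSE150 controls (log2 difference -1.44, SE 0.12, adjusted p = 0.00244). WDR82, which acts with ZC3H4, had no call in either line (-0.06 and -0.03). PPP1R10, a phosphatase regulator of termination, fell by 1.26 and 1.58, and SRRT, which couples capped RNA to the exosome, by 0.59 and 0.48. In KYSE150 INTS5 of the Integrator complex also fell (log2 difference -1.54, SE 0.10, adjusted p = 0.00166), as did EXOSC2 of the exosome (log2 difference -0.85, adjusted p = 0.00478). INTS5 and EXOSC2 kept the call in all 6 fits without 1 library. The exosome connection gene ZFC3H1 (0.88), the nuclease gene DIS3 (0.70) and RBM7 (0.60) rose, with the call kept in 3, 3 and 1 of 6. EXOSC7 of the exosome rose in KYSE180 (0.76), with the call kept in 1 of 6. The part of these genes in the antisense levels was not tested.

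Proteins that bind or process double-stranded RNA formed a list of 18. DGCR8, a partner of Drosha in microRNA processing, fell in both lines (-0.88 in KYSE180 and -1.06 in KYSE150). IFIH1, which encodes the sensor MDA5, was the other called gene in each line and moved in opposite directions. It had 4.82, 5.11 and 5.30 FPKM in CDCA7EXP against 20.7, 8.75 and 11.6 in KYSE180 controls (log2 difference -1.19, SE 0.27, adjusted p = 0.0367), and 7.08, 9.37 and 7.35 in shCDCA7 against 2.86, 2.60 and 2.60 in KYSE150 controls (log2 difference 1.27, SE 0.13, adjusted p = 0.00352). The difference of these effects was -2.46 (SE 0.33, adjusted p = 0.00273). The remaining 16 genes had no call in either line.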

How the data were processed

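RNA-seq of 12 libraries was analysed from 1 table of 58735 genes. The authors deposited FPKM values, which is the unit that the values themselves show, since with gene length they give whole reads for 100% of entries (tolerance 0.01). They are not scaled to read totals. The library size they imply was 13.7 M for shCDCA7 replicate 2 and 21.4 M for KYSE150 control replicate 1, which held 17.0 M and 19.6 M reads. Scaling by the median ratio of each library to the geometric mean of all 12 gave the same counts, 197 calls between the native lines and 25 for the difference. The submitters' processing notes list HISAT2 2.0.5, DESeq2 1.20.0 and the build mm10, with no role or order, although start, end and length of all 58735 genes match human GENCODE 29 (GRCh38). Strand use in counting is not stated, though the counts in exons shared by both strands took no account of strand. Separate cultures are not stated either, so p-values measure the spread between these libraries.

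Differences are limma-trend 3.58.1 (R 4.3.3) results on log2(FPKM + 1), 6 libraries per line with group as the only term; the native lines and the difference of the manipulations came from 1 fit of 12 libraries. A gene was kept with 10 reads or more, scaled to the median library, in 3 libraries or more, and 15 reads over all. Benjamini-Hochberg adjustment was over all genes tested, two-sided, with calls at 0.05. The fit was tested on simulated data. Named transcripts follow a rule on level, size of change and published role, and others are said to be chosen after their values were seen. Where a transcript was named for a called change, groups that do not overlap are a description and no added support. The transcripts and gene lists were chosen with earlier results of these data known. The alternatives were other scalings, another pseudocount, other read filters, limma-voom on recovered reads, other sets of fitted libraries, a replicate block, a threshold of 0.01, each library left out, and, added after the data were seen, removal of a GC trend. Intervals cover counting error only.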

Additional observations from a re-analysis of the deposited data

Results flagged for a closer look

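For 18 of the named antisense transcripts the change in CDCA7EXP and the change in shCDCA7 differed in the 12-library limma fit at an adjusted p under 0.05. The values are the change in CDCA7EXP minus the change in shCDCA7, in log2(FPKM + 1). It was above 0 for AC016876.1 (1.53), PCAT6 (1.32), AL109615.3 (1.28), AC093673.1 (1.67), AC018553.2 (1.02), AL121929.2 (1.45), AC009779.2 (0.99), AC083855.2 (0.88), AL118506.1 (0.78), CTBP1-DT (0.67) and TMPO-AS1 (0.78). It was below 0 for AC122685.1 (-1.48), WNT5A-AS1 (-1.15), GATA2-AS1 (-0.98), AC025287.3 (-1.36), ADNP-AS1 (-0.85), AL033397.2 (-1.53) and AFAP1-AS1 (-0.68). Several were near 0 in 1 of the lines, where no change could be seen, among them PCAT6, AC122685.1, WNT5A-AS1 and GATA2-AS1 in KYSE150 and AL121929.2 in KYSE180. With 1 library left out at a time, AC009779.2, AC122685.1, AL121929.2 and GATA2-AS1 kept the call in all 12 fits and AC025287.3 in all 11 that could test it. For AC122685.1 and GATA2-AS1, near 0 in KYSE150, this is little more than the KYSE180 change. In fits of KYSE180 alone that change kept its call in 3 of 6 for AC122685.1 and 4 of 6 for GATA2-AS1. The other transcripts lost the call for the difference in some fits: PCAT6 kept it in 2 of 12, CTBP1-DT, ADNP-AS1 and WNT5A-AS1 in 3, AC018553.2, AC083855.2 and TMPO-AS1 in 4, AL033397.2 and AL109615.3 in 5, AFAP1-AS1 and AL118506.1 in 6, AC093673.1 in 8 and AC016876.1 in 10. AC083855.2 also turned below 0 under a pseudocount of 0.1 and under limma-voom.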

How the results depend on the processing

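The number of called transcripts depended on the fit in both lines. In KYSE180 the 43 calls became 0 with no filter on low reads, 66 in a fit of all 12 libraries and 1 at an adjusted p under 0.01, and 0 to 65 with 1 library left out. In KYSE150 the 78 calls became 24 with no filter and 17 at 0.01, and 14 to 187 with 1 library left out. For the difference of the manipulations the 25 calls became 8 with no filter, 6 with limma-voom and 4 at 0.01, and 5 to 41 with 1 library left out. Calls over all genes moved as well. In KYSE180 1447 became 3 with no filter and 62 at 0.01, and in KYSE150 2854 became 1554 and 785. For the difference 952 became 530 and 189. The cause was not tested. The counts between native lines stayed within 1.5 times under every alternative. The replicate numbers did not pair the libraries (correlations of same-numbered deviations -0.076 to 0.066), and with a replicate block there were 20 calls in KYSE180, 31 in KYSE150 and 16 for the difference. The share of KYSE150 pairs with the same sign was 60.4% over all pairs, 53.3% for divergent pairs, 68.1% for overlapping pairs and 54.2% for pairs with no exon overlap. AC083855.2, 0.88 for the difference, was -0.027 with a pseudocount of 0.1 and -1.16 with limma-voom. Scaling to library totals gave 16 higher and 35 lower in KYSE180, against 18 and 25, and 14 higher and 84 lower in KYSE150, against 20 and 58. The transcripts had a median of 30 reads per library, and the smallest change detectable at that depth was not measured.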
